A study of Homo sapiens with 6 samples.

Results

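The members of the neurotransmitter-gated ion channel and glutamate receptor families were followed in ectoderm-specified H1 cells, an established human embryonic stem cell (hESC) line. They were chosen by a rule on gene symbols, which takes those of the subunits of the GABA-A receptor (GABRA to GABRR, without the π subunit GABRP), the glycine receptor (GLRA, GLRB), the nicotinic acetylcholine receptor (CHRN), the AMPA, kainate and NMDA receptors (GRIA, GRIK, GRIN) and the metabotropic glutamate receptors (GRM). This gave 63 of the 23615 rows of the gene table, comprising 18 GABA-A, 5 glycine, 16 nicotinic, 16 ionotropic glutamate and 8 metabotropic glutamate receptor genes. Both groups of cells received 0.5 nM BMP-4 for 3 days followed by 10% fetal calf serum until day 10. The DAPT group was given 5 μM DAPT, which inhibits γ-secretase, the protease that cleaves Notch receptors, for the whole protocol, and the ethanol group was given the vehicle. Poly-A RNA of 3 libraries per treatment, 6 in all, was sequenced. H1 is 1 cell line, and the libraries are called triplicates without separate cultures being named.

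The deposited table holds 1 expression value per gene and treatment, in FPKM (fragments relative to transcript length and sequencing depth), taken over the 3 libraries. It gives no value per library and no counts, so no test over libraries could be made from it and the depth is unknown. The test statistics and p-values that the authors deposited for each gene were not used, and the differences described here are therefore given with no replicate check and no error. A gene is called higher or lower in what follows only by size, where it had at least 1 FPKM in 1 treatment, was above 0 in both and differed by more than 2-fold. The same size rule was applied as a second, less certain step to genes whose higher value lay between 0.1 and 1 FPKM. Log2 fold changes are given as DAPT over ethanol. The columns of the deposited workbook carry opposite treatment names in its 2 sheets. The sheet of changed genes was followed here, whose values equal those of the sheet of all genes in all of its 1417 rows, and whose naming has the same direction as the study's own lists of raised and lowered genes. Under it, TFAP2A, a marker of surface ectoderm, and TP63, a marker of the keratinocyte lineage, had their higher value under DAPT. Under the other naming every direction given here would turn round. These RNA values come from whole cultures, in which fewer cells of a type and less RNA per cell cannot be told apart.

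GABA-A, glycine and nicotinic receptors are Cys-loop channels, built of a ring of subunits around a pore. GABA and glycine open a chloride pore, while acetylcholine opens a cation pore. AMPA, kainate and NMDA receptors are cation channels opened by glutamate and carry fast excitatory transmission in the brain, whereas the metabotropic receptors signal through G proteins and are no channels. All are best known from neurons and muscle, but nicotinic receptors with α7 or α9 subunits have also been described in human keratinocytes, and in mouse embryonic stem cells GABA is known to slow proliferation through GABA-A receptors.

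The promoters of the 4 members that passed the size rule (GRM4, GRM8, GABRQ and GLRB) are shown first, with that of GABRE, which lies near GABRQ on the X chromosome. Each runs 5′ to 3′ on the strand of the gene, from 250 bases before the annotated start to 50 bases from it, and comes from RefSeq on build GRCh38.p14. Capitals mark matches to GCCNNNGGC, the palindrome bound by AP-2 transcription factors, which reads the same on both strands. Of these factors TFAP2A marks surface ectoderm. The windows are chr6:34146038-34146337 for GRM4 (minus strand), chr7:127252892-127253191 for GRM8 (minus strand), chrX:152637645-152637944 for GABRQ (plus strand), chrX:151974627-151974926 for GABRE (minus strand) and chr4:157075900-157076199 for GLRB (plus strand).
GRM4: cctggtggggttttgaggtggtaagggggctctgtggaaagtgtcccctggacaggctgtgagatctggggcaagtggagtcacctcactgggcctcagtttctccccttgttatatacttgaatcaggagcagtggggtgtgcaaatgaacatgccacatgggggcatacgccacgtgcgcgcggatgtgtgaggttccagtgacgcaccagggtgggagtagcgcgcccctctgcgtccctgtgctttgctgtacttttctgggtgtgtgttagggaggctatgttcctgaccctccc
GRM8: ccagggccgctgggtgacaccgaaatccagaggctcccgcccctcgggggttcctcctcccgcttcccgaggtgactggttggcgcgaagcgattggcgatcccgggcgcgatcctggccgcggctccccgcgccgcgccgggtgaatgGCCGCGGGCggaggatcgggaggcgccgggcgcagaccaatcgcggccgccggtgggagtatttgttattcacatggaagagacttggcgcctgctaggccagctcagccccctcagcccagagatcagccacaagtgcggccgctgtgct
GABRQ: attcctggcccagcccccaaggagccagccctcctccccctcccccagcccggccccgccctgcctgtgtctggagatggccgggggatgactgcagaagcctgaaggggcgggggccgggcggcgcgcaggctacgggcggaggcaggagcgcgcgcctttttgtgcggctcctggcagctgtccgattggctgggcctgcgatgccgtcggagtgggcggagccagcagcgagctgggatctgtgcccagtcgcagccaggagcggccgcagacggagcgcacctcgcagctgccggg
GABRE: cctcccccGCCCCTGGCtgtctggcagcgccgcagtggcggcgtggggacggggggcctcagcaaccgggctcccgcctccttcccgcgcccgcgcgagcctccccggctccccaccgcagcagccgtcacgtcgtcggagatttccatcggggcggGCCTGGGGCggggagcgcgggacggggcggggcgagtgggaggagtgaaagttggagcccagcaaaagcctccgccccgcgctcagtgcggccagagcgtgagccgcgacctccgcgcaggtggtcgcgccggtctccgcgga
GLRB: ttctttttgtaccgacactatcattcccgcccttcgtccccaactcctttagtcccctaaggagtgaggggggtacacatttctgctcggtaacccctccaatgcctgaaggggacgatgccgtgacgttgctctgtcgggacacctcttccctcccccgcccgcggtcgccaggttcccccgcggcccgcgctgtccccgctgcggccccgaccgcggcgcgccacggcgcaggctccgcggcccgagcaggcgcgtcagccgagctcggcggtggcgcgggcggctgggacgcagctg
The windows of GABRE, GABRQ, GRM8 and GLRB were CpG-rich, with 41, 27, 34 and 37 CpG dinucleotides in 300 bases and a GC content of 76.7%, 73.7%, 70% and 69.7%. The GRM4 window held 9 CpG dinucleotides at a GC content of 58%. RefSeq lists 2 starts for GRM4, 4 for GRM8 and 2 for GLRB, and the most upstream one is shown. For GRM4 that start lay 9535 bases inside the locus used by the gene table. GABRE held 2 AP-2 matches, at positions -242 and -93 from the start, and GRM8 held 1 at position -101. The other 3 windows held none. None of the 5 held TGGGAA, the core motif of RBPJ, the DNA-binding partner of the Notch intracellular domain, on either strand. These matches depend on the start shown, since another of the GRM8 starts held 1 RBPJ core and the other GLRB start held 1 AP-2 match.

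Across the families, 45 of the 63 genes had a promoter in the RefSeq table when matched by symbol, 65 promoters in all. The AP-2 palindrome was found in 16 of these 65 (24.6%), against 23.2% of all 35116 promoters of the table. The RBPJ core, searched on both strands, was found in 10 of 65 (15.4%), against 24.0% of all promoters. TATAAA, likewise on both strands, was in 6 of 65 (9.23%), against 11.5%. Members' promoters had a median of 14 CpG dinucleotides, as did all promoters, and a median GC content of 61% against 58.7%. Such matches describe letters in a window and not sites in use.

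The receptor genes were expressed at low levels in both treatments. Their median was 0.156 FPKM in DAPT-treated cells and 0.167 FPKM in ethanol-treated cells, against 1.68 and 1.69 FPKM over all rows of the table. Only 11 members reached 1 FPKM in 1 treatment, 27 lay between 0.1 and 1 FPKM, and 25 stayed under 0.1 FPKM in both. The ρ3 subunit gene GABRR3 was listed at 0 in both treatments. GRIA2, GLRA1 and CHRNB3 were listed at 0 under ethanol alone and GABRA6 under DAPT alone, so no fold is given for these 4. Of the 25, CHRNA1 had the highest single value, 0.0870 FPKM under DAPT. At the other end, CHRNB1, the β1 subunit of the muscle nicotinic receptor, was the member with the highest value in each treatment, and its mean of the treatments stood at percentile 68.1 of all rows. Among the members named here, CHRNB1 was followed in DAPT-treated cells by GRIK5, GABRA5, CHRNA5 and GLRB, and in ethanol-treated cells by GRIK5, GABRA5, CHRNA5, GRIN2D and GRM4. Without values per library no neighbours in either order can be told apart by their spread.

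**Figure D1:**
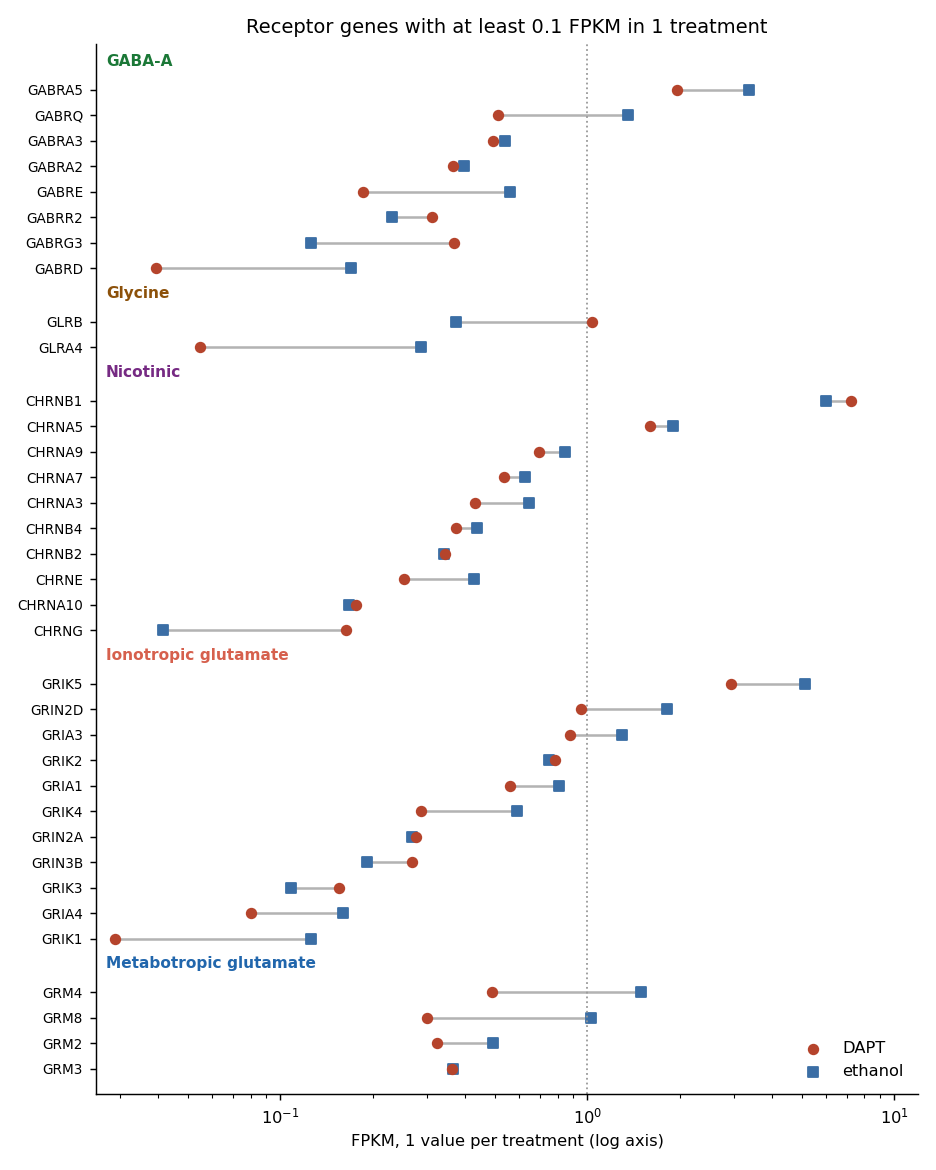
FPKM of 35 receptor genes with at least 0.1 FPKM in 1 treatment, grouped by receptor class, on a log axis. Circles are DAPT and squares are ethanol, 1 value per treatment over 3 libraries with no error available, and the dotted line marks 1 FPKM. Most circles lie left of their squares, with GABRG3, GLRB and CHRNG as the widest exceptions.

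Of the 11 members with at least 1 FPKM, 1 was more than 2-fold higher under DAPT (GLRB) and 3 were more than 2-fold lower (GABRQ, GRM4 and GRM8), while 7 lay within 2-fold. Over all 13370 genes with a fold at this level, 638 (4.77%) were higher and 729 (5.45%) were lower by the same rule. Folds over 2 were more frequent among genes of low level, so the level matters for this comparison. Of all genes whose higher value lay between 1 and 3 FPKM, 20.1% passed 2-fold, and so did 4 of the 8 members there. From 3 to 10 FPKM the share was 10% of all genes and 0 of 3 members. The median log2 fold change of the 11 members was -0.78, against 0.000635 for all genes at this level, with 8 negative and 3 positive values. Centred on 22 housekeeping genes, whose median log2 fold change was -0.17, 2 of the 11 were higher and 3 were lower, and over all genes 840 (6.28%) were higher and 555 (4.15%) were lower.

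Among the 27 members between 0.1 and 1 FPKM, 2 were more than 2-fold higher under DAPT (GABRG3 and CHRNG) and 7 were more than 2-fold lower, among them GABRD, GABRE, GLRA4, GRIK1, GRIK4 and GRIA4. Over all 3773 genes at this level, 13.4% were higher and 18.3% were lower. The members' median log2 fold change was -0.24, against -0.07 over all such genes, with 18 negative and 9 positive values. How many fragments stand behind such values is not given. The deposited status column, a flag on the amount of data, marks the rows of GABRG3, CHRNG, GABRD, GLRA4, GRIK1 and GRIA4 as not tested. With 0.1 FPKM added to both values, 5 of these 9 genes (CHRNG, GABRD, GRIK1, GRIK4 and GRIA4) came within 2-fold, and the sign of none was turned.

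**Figure D2:**
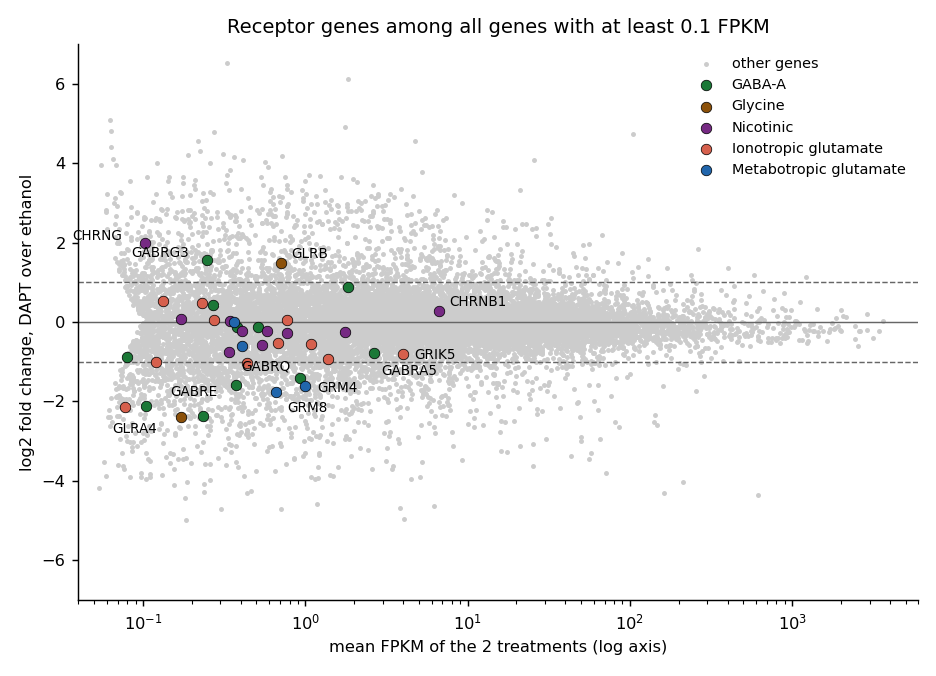
Log2 fold change, DAPT over ethanol, against the mean FPKM of the treatments (log axis) for all genes with at least 0.1 FPKM in 1 treatment and a value above 0 in both. Grey points are other genes, coloured points are the 38 receptor genes by class, and dashed lines mark a 2-fold difference. The grey cloud widens toward low FPKM, where the receptor genes lie, and 10 of them fall under the lower line and 3 above the upper one.

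GRM4 and GRM8, the group III metabotropic receptor genes with at least 1 FPKM, were both lower in DAPT-treated cells. Group III receptors inhibit adenylyl cyclase and act in neurons as presynaptic brakes on glutamate release. GRM4 (chr6:33989623-34123399 on hg19, as are the gene positions that follow) had 0.490 FPKM under DAPT and 1.5 FPKM under ethanol, at a log2 fold change of -1.61. GRM8 (chr7:126078652-126892428) had 0.30 FPKM under DAPT and 1.03 FPKM under ethanol, at a log2 fold change of -1.77. The locus of GRM8 is shared with a microRNA row, MIR592, listed at 0 in both treatments. The other group III genes were under 0.1 FPKM, GRM6 with 0.0212 FPKM in DAPT and 0.0315 FPKM in ethanol and GRM7 with 0.0397 and 0.0160 FPKM in the same order. GRM6 is the glutamate receptor of retinal ON bipolar cells. Both group II receptors, which also inhibit adenylyl cyclase, lay within 2-fold. GRM2 had 0.324 FPKM under DAPT and 0.493 FPKM under ethanol, and GRM3 had 0.363 and 0.364 FPKM. GRM5, a group I receptor, which activates phospholipase C, was under 0.1 FPKM in both treatments. Summed over the 8 genes, metabotropic receptors came to 1.64 FPKM under DAPT and 3.52 FPKM under ethanol, 2.15 times as much in ethanol.

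Of the ionotropic glutamate receptor genes with at least 1 FPKM, all 3 had lower values under DAPT but none by 2-fold. GRIK5 encodes a high-affinity kainate receptor subunit that needs a partner from GRIK1, GRIK2 or GRIK3 to form a channel. It was the most highly expressed glutamate receptor gene (chr19:42502468-42569957), with 2.93 FPKM in DAPT and 5.11 FPKM in ethanol, a log2 fold change of -0.80. Among its partners, GRIK2 had 0.785 FPKM under DAPT and 0.752 FPKM under ethanol. GRIK3 had 0.156 FPKM under DAPT and 0.108 FPKM under ethanol. GRIK1 was lower by the size rule at low level, with 0.0288 FPKM in DAPT and 0.126 FPKM in ethanol. The GRIK1 locus also holds 2 antisense rows, GRIK1-AS1 and GRIK1-AS2, and whether strand was used in counting is not given in the sources used here. GRIK4, the other high-affinity subunit, was lower as well, with 0.287 FPKM in DAPT and 0.590 FPKM in ethanol (log2 fold change -1.04). The kainate genes thus did not share a direction, and their summed level of 4.19 FPKM under DAPT and 6.69 FPKM under ethanol rested mostly on GRIK5.

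The AMPA receptor genes were led by GRIA3 (chrX:122318096-122624766), with 0.877 FPKM in DAPT and 1.30 FPKM in ethanol (log2 fold change -0.56). GRIA1 had 0.562 FPKM under DAPT and 0.807 FPKM under ethanol. GRIA4 lay just past 2-fold, with 0.0800 FPKM in DAPT and 0.161 FPKM in ethanol, a log2 fold change of -1.0. GRIA2, whose RNA-edited subunit makes AMPA receptors impermeable to calcium, had 0.0398 FPKM under DAPT and was listed at 0 under ethanol. The AMPA genes thus had their higher values in ethanol wherever a fold could be formed from 0.1 FPKM upward.

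NMDA receptors require the GluN1 subunit encoded by GRIN1, and this gene was at the bottom of the range, with 0.0119 FPKM in DAPT and 0.0390 FPKM in ethanol. GRIN2D, a GluN2 subunit typical of early development, was the leading NMDA receptor gene (chr19:48898132-48948188). It had 0.956 FPKM under DAPT and 1.82 FPKM under ethanol, at a log2 fold change of -0.93. The other GluN2 genes were lower in level than GRIN2D in both treatments. GRIN2A had 0.277 FPKM under DAPT and 0.268 FPKM under ethanol, and GRIN2B had 0.0336 and 0.0670 FPKM. GRIN3B had 0.269 FPKM under DAPT and 0.191 FPKM under ethanol, but its locus overlaps TMEM259, a row with 27.6 FPKM in DAPT and 31.4 FPKM in ethanol, so its reads cannot be separated with certainty. GRIN2C and GRIN3A were under 0.1 FPKM.

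GABA-A receptors are usually assembled from α, β and γ subunits, and the values of their genes did not share a direction. GABRA5, the α5 subunit (chr15:27111866-27194357), had 1.96 FPKM under DAPT and 3.37 FPKM under ethanol, at a log2 fold change of -0.78. GABRG3, the γ3 subunit (chr15:27216429-27778373), had 0.369 FPKM under DAPT and 0.126 FPKM under ethanol, at a log2 fold change of 1.55. These neighbouring genes, 22.1 kb apart, differed in sign, but the table marks the GABRG3 row as not tested.

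The θ, ε and δ subunit genes were all more than 2-fold lower under DAPT. These subunits take the place of γ or β in less common receptor forms. GABRQ, the θ subunit (chrX:151806637-151821825), had 0.511 FPKM under DAPT and 1.36 FPKM under ethanol, at a log2 fold change of -1.41. GABRE, the ε subunit (chrX:151121596-151143151), had 0.186 FPKM under DAPT and 0.559 FPKM under ethanol, at a log2 fold change of -1.59. GABRD, the δ subunit of extrasynaptic receptors, had 0.0393 FPKM under DAPT and 0.170 FPKM under ethanol (log2 fold change -2.11). The table marks the GABRD row as not tested. GABRA3 lies between GABRE and GABRQ on the X chromosome (chrX:151335634-151619831) and stayed within 2-fold, with 0.492 FPKM in DAPT and 0.538 FPKM in ethanol. GABRE and GABRA3 share their loci with microRNA rows that were listed at 0 in both treatments. Summed, the 3 genes GABRQ, GABRE and GABRD came to 0.736 FPKM under DAPT and 2.08 FPKM under ethanol.

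Of the remaining GABA-A genes, GABRA2 had 0.365 FPKM under DAPT and 0.397 FPKM under ethanol. GABRR2, a ρ subunit known from the retina, had 0.311 FPKM under DAPT and 0.232 FPKM under ethanol. Both lay within 2-fold. GABRA4, GABRB1, GABRB2, GABRG1 and GABRR1 were under 0.1 FPKM in both treatments, and GABRA6, a cerebellar granule cell gene, was listed at 0 under DAPT. Over the 18 GABA-A genes the summed level was 6.88 FPKM under DAPT and 8.71 FPKM under ethanol.

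**Figure D3:**
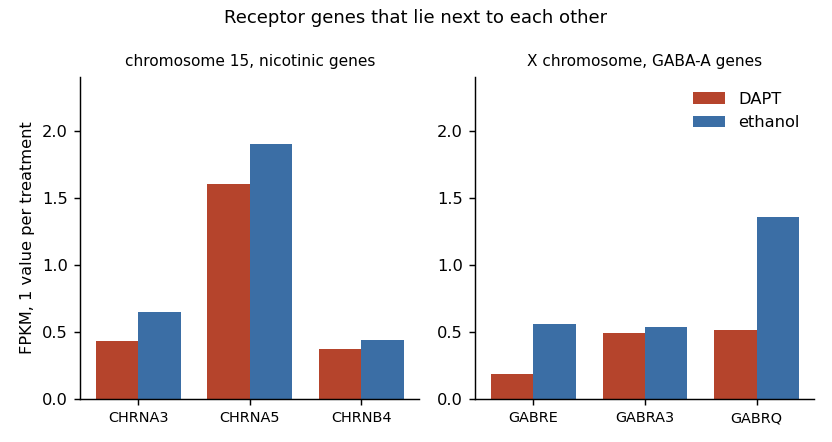
FPKM of receptor genes that lie next to each other on a chromosome, DAPT left of ethanol, 1 value per treatment over 3 libraries with no error available. All 3 nicotinic genes of chromosome 15 and all 3 GABA-A genes of the X chromosome had their higher value under ethanol.

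Neighbouring genes were set side by side more widely, taking members within 1 Mb of each other. There were 9 such groups holding 25 members. In the nicotinic group of chromosome 15 (CHRNA3 and CHRNA5 in 1 shared locus at chr15:78857862-78913637, and CHRNB4 at chr15:78916636-78933587), the log2 fold changes were -0.58, -0.25 and -0.23. In the X-chromosomal GABA-A group, GABRE and GABRQ were lower by the size rule and GABRA3 between them was not. GLRB on chromosome 4 was 48.5 kb from GRIA2, which was listed at 0 in ethanol. The GABA-A group of chromosome 4 had 4 members, of which only GABRA2 reached 0.1 FPKM. CHRND and CHRNG on chromosome 2 both had their higher value under DAPT, and GABRR1 and GABRR2 on chromosome 6 differed in sign. Lying next to each other thus went with a shared sign in some groups and not in others.

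Glycine receptors were represented mainly by GLRB, the β subunit, which binds the scaffold gephyrin and does not form a channel without an α subunit. GLRB (chr4:157997277-158093242) had 1.04 FPKM under DAPT and 0.373 FPKM under ethanol, at a log2 fold change of 1.48. It was the only member with at least 1 FPKM to be more than 2-fold higher under DAPT. None of the α subunit genes reached that level in either treatment. GLRA4, regarded as a pseudogene in humans, had 0.0549 FPKM under DAPT and 0.288 FPKM under ethanol (log2 fold change -2.39), in a locus shared with TMEM31. GLRA1, GLRA2 and GLRA3 were under 0.1 FPKM, and GLRA1 was listed at 0 under ethanol.

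The nicotinic receptor genes differed little in sum, at 12.1 FPKM under DAPT and 11.6 FPKM under ethanol over 16 genes, and neither of the 2 with at least 1 FPKM passed 2-fold. CHRNB1 (chr17:7348406-7360932) had 7.24 FPKM under DAPT and 6.01 FPKM under ethanol, at a log2 fold change of 0.27. The muscle receptor also needs α1, δ and either the fetal γ or the adult ε subunit, and these were far lower in level than CHRNB1. CHRNG, the fetal γ subunit, had 0.163 FPKM under DAPT and 0.0414 FPKM under ethanol (log2 fold change 1.98). This was the largest positive value among members from 0.1 FPKM, in a row marked as not tested. CHRNA1 had 0.0870 FPKM under DAPT and 0.0248 FPKM under ethanol, and CHRND, 3.06 kb from CHRNG, had 0.0480 and 0.0237 FPKM. CHRNE had 0.252 FPKM under DAPT and 0.428 FPKM under ethanol, but the table marks its row as failed, in a locus shared with MINK1, a row at 17.4 FPKM under DAPT and 16.8 FPKM under ethanol. All the muscle genes but CHRNE thus had their higher value under DAPT, at low level in each case except CHRNB1.

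Among the neuronal and epithelial nicotinic genes, CHRNA5 led with 1.6 FPKM in DAPT and 1.90 FPKM in ethanol (log2 fold change -0.25). The α5 subunit needs other α and β subunits to form a channel. CHRNA3, in the same locus, had 0.431 FPKM under DAPT and 0.645 FPKM under ethanol. CHRNB4 had 0.372 FPKM under DAPT and 0.437 FPKM under ethanol. These genes make up the ganglionic receptor, and all 3 lay within 2-fold. CHRNA9, found in cochlear hair cells and keratinocytes, had 0.698 FPKM under DAPT and 0.847 FPKM under ethanol, and its partner CHRNA10 had 0.177 and 0.167 FPKM. CHRNA7, which forms receptors of α7 alone, had 0.534 FPKM under DAPT and 0.628 FPKM under ethanol. CHRNB2 had 0.344 FPKM under DAPT and 0.340 FPKM under ethanol. Every neuronal or epithelial nicotinic gene above 0.1 FPKM lay within 2-fold, with values on either side of 0. CHRNA2, CHRNA4, CHRNA6 and CHRNB3 were under 0.1 FPKM.

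**Figure D4:**
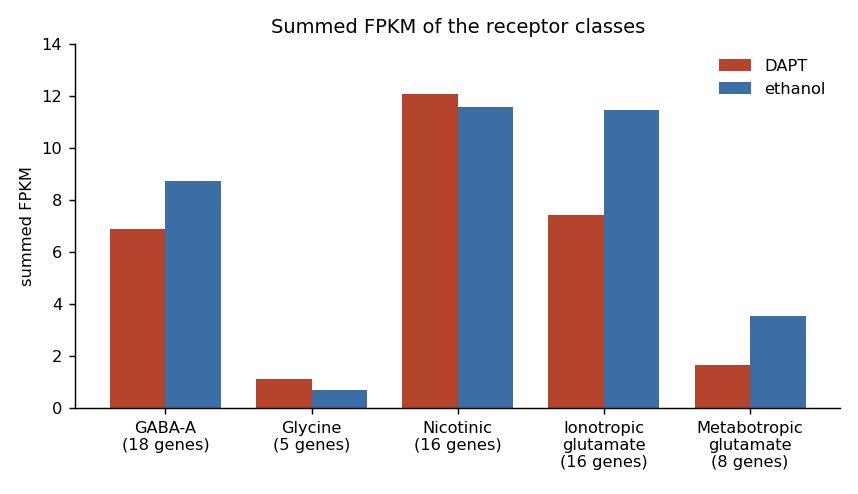
Summed FPKM of each receptor class, DAPT left of ethanol, with the number of genes under each class and no error available. The sums were higher under DAPT for glycine receptor genes (1.12 against 0.690 FPKM under ethanol) and, slightly, for nicotinic genes, and lower under DAPT for the GABA-A, ionotropic glutamate and metabotropic glutamate classes, and the first of these directions rests on GLRB and the second on CHRNB1.

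The glycine and nicotinic sums each turned on 1 gene. Without GLRB the glycine receptor genes summed to 0.0809 FPKM under DAPT and 0.317 FPKM under ethanol, and without CHRNB1 the nicotinic genes summed to 4.82 FPKM under DAPT and 5.57 FPKM under ethanol. Summed over all 63 genes, the receptor families came to 29.1 FPKM under DAPT and 36.0 FPKM under ethanol. Ionotropic glutamate receptor genes made up 25.5% of this under DAPT and 31.8% under ethanol, and nicotinic genes 41.4% under DAPT and 32.2% under ethanol. Metabotropic receptors had shares of 5.63% under DAPT and 9.79% under ethanol. GABA-A genes held 23.6% under DAPT and 24.2% under ethanol, and glycine receptor genes 3.85% under DAPT and 1.92% under ethanol. The 24 glutamate receptor genes and the 39 Cys-loop genes were also counted apart. From 0.1 FPKM upward, 0 of 15 glutamate receptor genes were more than 2-fold higher and 5 were lower, while 3 of 23 Cys-loop genes were higher and 5 were lower. Over all 17143 genes from that level, 6.67% were higher and 8.28% were lower, and this share rises toward low levels, where the members lie. The difference between these counts was not tested.

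The loci given for the members spanned a median of 75.5 kb of genome, against 27.3 kb over all rows of the table, with GRM7 the longest at 880.4 kb. A locus can be longer than its gene, since 12 members share theirs with another row. Their canonical transcripts in the GENCODE annotation of GRCh37 had a median length of 4238 bases and a GC content of 46.8%. Rows with at least 1 FPKM, of which 88.1% had a transcript in the annotation, had medians of 3287 bases and 48.5%, and the 11 members at that level had 4506 bases and 45.7%. Of members from 0.1 FPKM, the 10 that were lower by the size rule had a median GC content of 49.6%, the 3 that were higher 43.9% and the 25 within 2-fold 46.8%. The part of length and GC content in the folds was not tested.

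Related genes that the symbol rule leaves out were read beside the members. GABRP, the π subunit of the GABA-A receptor found in epithelia, had 201 FPKM under DAPT and 7.56 FPKM under ethanol, at a log2 fold change of 4.73. In DAPT-treated cells this single gene exceeded the sum of all 63 members. In the list of 23 such genes 4 had at least 1 FPKM, and of these the ATP-gated channel gene P2RX4 and the GABA-B receptor gene GABBR1 lay within 2-fold. P2RX4 had 6.17 FPKM under DAPT and 6.97 FPKM under ethanol, and GABBR1 had 6.30 and 6.48 FPKM.

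Genes that make, break down or carry the transmitters were mostly within 2-fold. Of 34 such genes 19 had at least 1 FPKM, 2 of them higher under DAPT and 3 lower, with a median log2 fold change of -0.12. The share past 2-fold in either direction was thus 26.3%, against 10.2% of all genes at that level. This difference was not tested. Among them GAD1, which makes GABA from glutamate, had 4.08 FPKM under DAPT and 9.40 FPKM under ethanol (log2 fold change -1.20). GLDC, of the glycine cleavage system, had 4.98 FPKM under DAPT and 15.3 FPKM under ethanol (log2 fold change -1.61), and GLS2, a glutaminase whose locus is shared with another row, had 1.30 and 4.79 FPKM. The glutamate transporter SLC1A6 had 27.6 FPKM under DAPT and 9.64 FPKM under ethanol, and SLC1A3 had 21.5 and 10.2 FPKM. Both transporters thus stood above the highest of the 63 members in each treatment. GLUL, glutamine synthetase, had 66.3 FPKM under DAPT and 66.0 FPKM under ethanol, and SHMT2 had 47.8 and 73.8 FPKM.

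Anchoring, auxiliary and chaperone genes numbered 44, of which 31 had at least 1 FPKM, with a median log2 fold change of -0.04. Of these 31, 2 were higher under DAPT and 2 lower, a share of 12.9% against 10.2% of all genes at that level. One of the higher ones was CACNG4, an AMPA receptor auxiliary subunit, which had 25.3 FPKM under DAPT and 11 FPKM under ethanol. The lower ones are both AMPA receptor auxiliary proteins, SHISA6 with 0.466 FPKM in DAPT and 1.93 FPKM in ethanol and CNIH3 with 1.73 and 4.43 FPKM. GABARAP, a GABA-A receptor binding protein of the autophagy machinery, was the highest of the list at 319 FPKM under DAPT and 275 FPKM under ethanol. RAPSN, which clusters the muscle nicotinic receptor, was under 0.1 FPKM, with 0.0484 FPKM in DAPT and 0.0299 FPKM in ethanol.

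REST represses many neuronal genes outside neurons, and it had 8.89 FPKM under DAPT and 8.82 FPKM under ethanol. Of 8 genes of REST and its corepressors, SIN3A was higher by the size rule, with 10.3 FPKM in DAPT and 4.14 FPKM in ethanol. The other 7 lay within 2-fold, so that 12.5% passed it, against 10.2% of all genes with at least 1 FPKM.

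**Figure D5:**
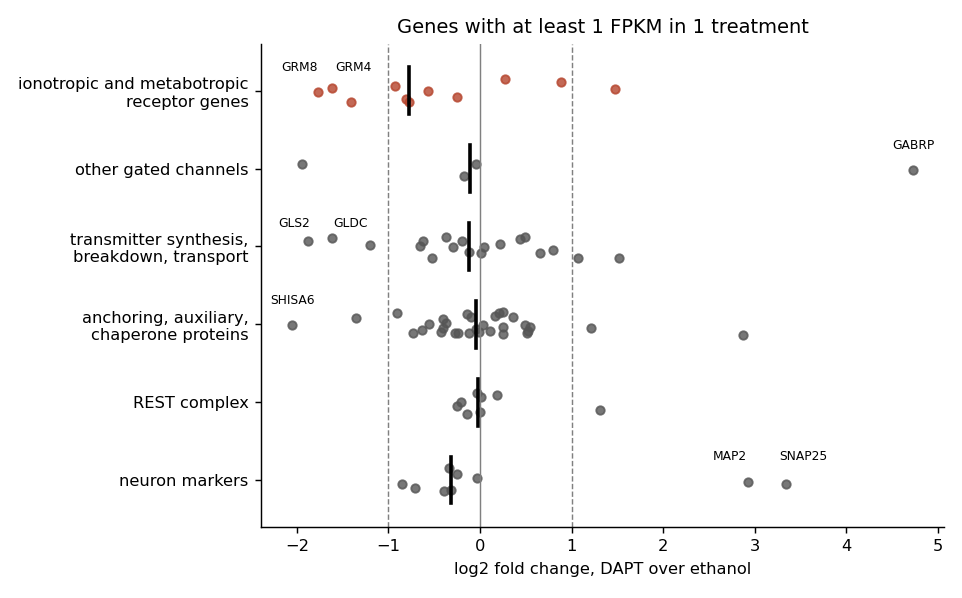
Log2 fold change, DAPT over ethanol, of genes with at least 1 FPKM in 1 treatment in the receptor families and in related lists. Points are genes, scattered vertically for legibility, black bars are medians and dashed lines mark a 2-fold difference. The receptor median lies at -0.78, that of the neuron markers at -0.32 and those of the other lists between -0.12 and -0.02.

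Marker genes of the cell types that could carry these receptors were read in the same table. All 15 neuron markers were above 0 in both treatments, with a summed level of 168 FPKM in DAPT and 182 FPKM in ethanol, most of it from TUBB3 (130 FPKM under DAPT and 133 FPKM under ethanol). Of the 9 with at least 1 FPKM, 2 were higher under DAPT and none was lower by the size rule, against 4.77% and 5.45% of all genes. The higher ones were SNAP25 (1.12 FPKM against 0.110 FPKM under ethanol) and MAP2 (1.36 FPKM against 0.179 FPKM under ethanol). The other 7 lay within 2-fold, all with their higher value under ethanol, among them GAP43 with 5.87 FPKM in DAPT and 10.6 FPKM in ethanol. The neuronal marker RBFOX3, at low level, had 0.301 FPKM under DAPT and 0.644 FPKM under ethanol, while DCX, of migrating neurons, had 0.425 and 0.0216 FPKM. ELAVL4, a neuronal RNA-binding protein, had 0.361 and 0.0756 FPKM. From 0.1 FPKM upward, 4 of the 15 neuron markers were thus more than 2-fold higher under DAPT and 1 was lower. Over all genes from that level, 6.67% were higher and 8.28% were lower. By sign alone, 5 of the 15 had their higher value under DAPT and 10 under ethanol. Glial markers summed to 24.6 FPKM under DAPT and 12.4 FPKM under ethanol, with OLIG2 at 0 in DAPT and GFAP at 0.0907 FPKM under DAPT and 0.198 FPKM under ethanol. Skeletal muscle markers summed to 46.6 FPKM under DAPT and 115 FPKM under ethanol, with MYF5 at 0 in both treatments, MYOD1 at 0 in DAPT and MYOG at 0.0147 FPKM under DAPT and 0.0420 FPKM under ethanol.

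The label of ectoderm specification was also set beside markers. Their directions rest on the column naming chosen above, for which TP63 and TFAP2A were already cited, so they are no separate check of it. Of 9 surface ectoderm and keratinocyte markers with at least 1 FPKM, 5 were higher under DAPT and none was lower. Over all genes at this level, 4.77% were higher and 5.45% were lower. Among the 5 were TP63 with 3.88 FPKM in DAPT and 0.546 FPKM in ethanol and TFAP2A with 21.8 and 7.10 FPKM. All 10 of the list were above 0, with a summed level of 1866 FPKM in DAPT and 1587 FPKM in ethanol. Most of this sum came from KRT8 (961 FPKM under DAPT and 876 FPKM under ethanol) and KRT18 (846 and 687 FPKM), both within 2-fold. KRT15, at low level, had its higher value under ethanol, with 0.231 FPKM in DAPT and 0.352 FPKM in ethanol. All 7 endoderm markers were lower under DAPT (sum 35.3 FPKM against 496 FPKM under ethanol), as were 4 of 7 pluripotency markers (sum 288 FPKM against 679 FPKM under ethanol), and 4 of 6 neural crest markers were higher (sum 37.1 FPKM against 9.52 FPKM under ethanol). The trophoblast list, with 5 of 6 genes in the table, had a sum of 2.46 FPKM under DAPT and 2.67 FPKM under ethanol. These marker sums differed between the treatments in the same libraries as the receptor genes, and their part in the receptor values was not tested.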

How the data were processed

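RNA of H1 cells specified to ectoderm with DAPT or ethanol (3 libraries each) was sequenced. Per the paper's methods and the submitters' processing notes, the authors aligned reads to hg19 (TopHat 2.0.6) and ran Cufflinks 2.0.2 for expression. The deposited FPKM values are the authors', 1 per gene and treatment over its libraries, and the deposited status column marks whether the authors' comparison was completed. The authors' columns of fold changes, test statistics, p-values and q-values were not used. Gene annotation, library scaling and use of strand in counting: not given in the sources used here.

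Folds, counts and sums were computed from the FPKM values with pandas 2.3.3 in python 3.11.15 and tested on simulated data. No pseudocount was added, and no fold was formed with a value of 0. By status, 25 of the 63 members were completed, 37 were not tested and 1 failed, and 12 share a locus with another row. Gene starts were written counting from 1: in 20130 rows compared with GENCODE, the start plus 1 was a transcript start in 7317 and the start as written in 875. Transcript length and GC content came from GENCODE on GRCh37, where only 79.6% of all rows were found, so that comparison over all rows is void and not given. Promoters came from RefSeq on GRCh38.p14.

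The named genes are every member with at least 0.1 FPKM in 1 treatment, and of each related list up to 6 genes with at least 1 FPKM past 2-fold and up to 2 others of the highest level. GABRP is named as the subunit left out by the symbol rule, and some genes that these rules select are not reported here. Marker genes, and members and list genes under these levels, were named as examples after their values had been seen. The members and lists were chosen with earlier results of these data known. The alternatives were other FPKM minimums, folds, pseudocounts and scalings, and leaving out rows by status or overlap.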

Additional observations from a re-analysis of the deposited data

How the results depend on the processing

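Counts of members past the threshold moved with each choice of level and size. With a minimum of 0.5 FPKM, 1 of 19 members was higher with DAPT and 5 were lower, against 5.3% and 6.41% of all genes at that minimum. With a minimum of 0.1 FPKM, 3 of 38 were higher and 10 were lower, against 6.67% and 8.28% of all genes, and with 5 FPKM, 0 of 2 were higher and 0 were lower, against 3.45% and 3.5%. At a fold over 1.5, 2 of 11 were higher and 6 were lower, against 10.5% and 11.4% of all genes, and at a fold over 4, 0 were higher and 0 were lower, against 1.54% and 1.36%. With a pseudocount of 1 FPKM, 0 were higher and 0 were lower, against 3.14% and 3.12% of all genes, since it shrinks the fold of genes at this level. Centred on the housekeeping genes, 2 were higher and 3 were lower. Of the 38 members from 0.1 FPKM, 3 with negative values near 0 (GABRA2, GABRA3 and GRM3) became positive under that centring, and no other alternative scaling or pseudocount changed a sign. A pseudocount of 0.1 FPKM, centring on the median of all genes, upper-quartile scaling and completed rows alone gave 1 higher and 3 lower, and leaving out rows that overlap another row gave 1 higher and 2 lower of 9. The median log2 fold change of the members was negative under all these alternatives for which it was computed, between -0.79 with upper-quartile scaling and -0.40 with a minimum of 0.1 FPKM. No paired analysis was possible because the table gives 1 value per treatment and none per library, and for the same reason no library could be left out. The depth is unknown, so no lower limit of detection is given for genes at or near 0.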
